A study of Mus musculus with 135 samples.

Results

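Thrombopoietin signals through a receptor that has no kinase of its own and relies on Janus kinases and STAT factors, and this report follows 9 genes of that pathway in single haematopoietic stem cells (HSCs): the kinases *Jak1*, *Jak2* and *Lyn*, the factors *Stat3*, *Stat5a* and *Stat5b*, and the inhibitors *Sh2b3*, *Socs2* and *Socs3*. They were taken by name from a table of read counts for 15181 genes, and all 9 were found in it. The receptor's own gene was not analysed here.

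HSCs from C57BL/6 mice carrying the *Vwf-eGFP* reporter, which marks platelet-primed stem cells, were sorted from bone marrow by the surface phenotype 7AAD-Lin-Sca-1+c-Kit+CD150+CD48-. Young animals were 2 to 3 months old and old animals 20 to 25 months, and each age was 1 mouse studied in a separate experiment, with cells captured on microfluidic chips. The table holds 61 young and 74 old cells, of which 52 and 62 passed the study's quality limits and are used here. Polyadenylated RNA of each cell was amplified and sequenced without molecular identifiers, so reads are not independent molecules and every interval below (95%, exact Clopper-Pearson for shares of cells and exact Poisson for reads) covers counting error only. With 1 mouse per age, the cells are not replicates, differences between the ages have no replicate check, and p-values are not given; age, mouse, experiment and the sex difference between the mice that sex-linked genes show cannot be told apart.

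When thrombopoietin binds, JAK2 bound to the receptor phosphorylates it and then STAT5 and STAT3, which enter the nucleus and switch on target genes, while JAK1 serves chiefly the receptors for interferons and the interleukin-6 family. The response is held in check by proteins that it partly induces itself: SOCS2 and SOCS3 bind phosphorylated receptors or kinases, SH2B3 (also called LNK) binds JAK2 and the receptor, and the SRC family kinase LYN has been linked to limiting the signal. In HSCs this pathway maintains quiescence and self-renewal, and in megakaryocytes it drives platelet formation.

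Between 273236 and 5688706 reads were counted on genes in the young cells and between 276316 and 4086659 in the old cells, and a median of 4115.5 and 3901.5 genes were expressed per cell. All 10 HSC marker genes examined had reads, from *Meis1*, expressed in 52 young and 62 old cells, down to *Fgd5* in 6 and 14. *Slamf1*, which encodes the sorted CD150, was expressed in 9 and 15. Of the 10, 7 were higher in old cells, *Ly6a* by 1.55. The 3 lower in old cells were *Mecom*, which differed by -0.998, *Hlf* by -0.39 and *Ctnnal1* by -0.26. Of the 5 megakaryocyte and platelet markers, 2 were higher and 3 lower in old cells, and at least 1 of them was expressed in 21 young and 37 old cells. *Gp9* differed by 0.80 and *Pf4* by 0.71, against -0.15 for *Ppbp*, -0.05 for *Itga2b* and -0.03 for *Gp1bb*. *Ppbp* was expressed in 2 young and 2 old cells and *Gp1bb* in 1 and 2. Markers of other blood cells were expressed in part of the cells: *Cd79b* (B cells) in 12 young and 16 old cells, *Cd3d* (T cells) in 16 and 16, *Cd68* (macrophages) in 6 and 5, *S100a8* and *S100a9* (neutrophils) in 4 and 3 and in 2 and 2, and *Klf1* (erythroid cells) in 2 and 0, while the haemoglobin gene *Hba-a1* had no read. Several other traits moved with age: a gene of the cell cycle set *Ccna2*, *Ccnb1*, *Cdk1* and *Cdc25c* was expressed in 27 young and 13 old cells, 9 of 11 immediate-early genes were higher in old cells, and the sex-linked genes differed, with *Xist* expressed in 50 young and 8 old cells and a Y-linked gene in 2 and 58. Their part in the results below was not tested, except that values for cells without a cell cycle gene are given for the members other than *Socs3* and *Sh2b3*.

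*Stat5b*, *Stat5a* and *Stat3* lie side by side on chromosome 11 (GRCm38, chr11:100780731-100859004 on the minus strand, chr11:100859351-100885169 on the plus strand and chr11:100886806-100939594 on the minus strand), with 346 bases between *Stat5b* and *Stat5a* and 1636 between *Stat5a* and *Stat3*. The coding sequences of *Stat5a* and *Stat5b* were identical at 2128 of 2341 aligned bases (90.9%), with a longest identical run of 324 bases. The following 120 coding bases, positions 535 to 654 of both coding sequences, are shown because a 51-base read that misses the 1 differing base could come from either gene. They span exons 6 and 7 of *Stat5a* (chr11:100865490-100874106, plus strand) and exons 5 and 6 of *Stat5b* (chr11:100798618-100801422, minus strand), intron included, and the capital marks the 1 base that differs:
Stat5a: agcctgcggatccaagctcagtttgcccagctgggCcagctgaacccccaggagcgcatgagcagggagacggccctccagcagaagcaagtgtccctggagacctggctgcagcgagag
Stat5b: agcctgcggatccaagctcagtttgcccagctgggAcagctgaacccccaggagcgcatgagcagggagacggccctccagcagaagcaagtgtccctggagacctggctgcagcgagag

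Of the 51-base stretches of the *Stat5a* transcript, 620 of 3838 (16.2%) also occurred in a transcript of *Stat5b* or *Stat3*, and of the *Stat5b* transcript 598 of 5163 (11.6%) occurred in *Stat5a*. Of the *Lyn* transcript, 735 of 3413 stretches (21.5%) occurred in *Gm11787* or *Gm26857*, and of the *Socs2* transcript 396 of 2172 (18.2%) in *Gm9847* or *Gm8000*, none of which is a gene of the count table. *Stat3* shared 0.367% and *Sh2b3* 0.362% of their stretches with another gene, and *Jak1*, *Jak2* and *Socs3* shared none. The mapping kept a single alignment per read, so a read from a shared stretch was placed at 1 of its possible origins; how that origin was chosen is not given in the sources used here, and the levels of *Stat5a*, *Stat5b*, *Socs2* and *Lyn* are uncertain to that extent.

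The other members lie on chr4:101151974-101265282 (*Jak1*, minus strand), chr19:29251803-29313095 (*Jak2*, plus strand), chr5:121815481-121837645 (*Sh2b3*, minus strand), chr10:95383903-95417321 (*Socs2*, minus strand), chr11:117966079-117970336 (*Socs3*, minus strand) and chr4:3678068-3791612 (*Lyn*, plus strand).

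Levels are given as log2(CPM + 1), where CPM is the count scaled to a cell total of 1000000. Cells with a value above 2, or 3 CPM, count as expressing the gene, so the reads needed rise with the depth of a cell. Cells under 1000000 reads numbered 5 young and 11 old. Of these young and old cells, 5 and 10 expressed *Jak1*, 2 and 8 *Jak2*, 3 and 9 *Stat3*, 4 and 9 *Stat5a*, and 3 and 9 *Stat5b*. *Sh2b3* was expressed in 0 and 1 of them, *Socs2* in 4 and 1, *Socs3* in 3 and 2, and *Lyn* in 4 and 6. A difference is the mean over old cells minus the mean over young cells, on the log2(CPM + 1) scale. A difference of at least 1 in size was counted. Among the 9 members, *Socs2* was the one that passed this size, at -1.70, and no member was higher in old cells by as much. Over all 15014 genes with a read, 3.91% were higher and 4.49% lower in old cells by at least 1, and over the 9374 genes that 10% or more of the cells expressed, which include 8 members, the shares were 6.24% and 6.98%. With 9 members, a count of 1 does not set them apart from all genes. The 9 differences had a median of 0.01, with 5 members higher and 4 lower in old cells, against a median of -0.02 over all genes with a read.

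**Figure D1:**
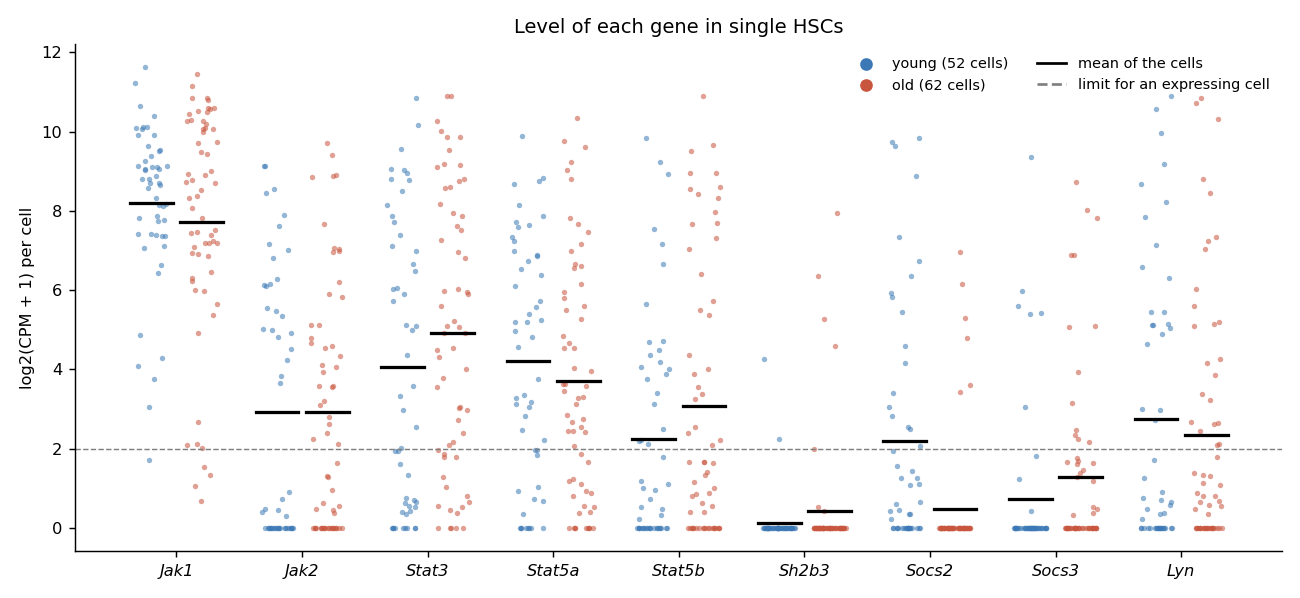
Level of the 9 genes in single HSCs, as log2(CPM + 1) on a linear axis, with 1 point per cell (52 young, 62 old), a bar at the mean and a dashed line at the limit of 2 for an expressing cell. Young and old cells covered similar ranges for *Jak1*, *Jak2* and the STAT genes, whereas *Socs2* reached 9.85 in young and 6.97 in old cells.

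*Jak1* was the most widely expressed of the 9 genes at both ages. It ranged from 1.72 to 11.63 with a median of 8.70 in young cells, and from 0.68 to 11.45 with a median of 8.34 in old cells. Every cell had at least 1 *Jak1* read, and the 2 ages overlapped over nearly their whole range. Expressing cells numbered 51 of 52 young (98.1%, interval 89.7 to 100) and 58 of 62 old (93.5%, 84.3 to 98.2). The mean was 8.19 ± 2.03 (SD over cells) in young and 7.72 ± 2.86 in old cells, a difference of -0.47 that is smaller than the spread among cells of either age. Its sign was not steady, since the log2 ratio of summed counts was 0.23. Among cells without a cell cycle gene the difference was -1.05.

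*Jak2*, which encodes the kinase that starts the thrombopoietin signal, was read in fewer cells. Its level ran from 0 to 9.13 in young cells (median 0.59) and from 0 to 9.71 in old cells (median 2.32), and the 2 ages overlapped throughout. Expression was found in 24 young cells (46.2%, 32.2 to 60.5) and 33 old cells (53.2%, 40.1 to 66). The means, 2.92 ± 3.26 and 2.93 ± 3.01, differed by 0.01, and by -0.32 among cells without a cell cycle gene. In cells that expressed it, the median level was 6.11 in young and 4.67 in old cells. Cells without any *Jak2* read numbered 22 young and 20 old. For a transcript read so unevenly, a cell at 0 cannot be told from a cell whose few molecules were lost before sequencing.

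*Stat3* encodes a factor that interleukin-6 family cytokines also activate. It had the largest positive difference of the 9 genes. Young cells ranged from 0 to 10.84 with a median of 3.46, and old cells from 0 to 10.90 with a median of 4.92. The higher centre of the old cells came with complete overlap of the 2 ranges. *Stat3* was expressed in 30 young cells (57.7%, 43.2 to 71.3) and 45 old cells (72.6%, 59.8 to 83.1), and these intervals overlapped. The means were 4.07 ± 3.56 and 4.91 ± 3.41, a difference of 0.85. In cells that expressed it the order was turned, with medians of 6.83 in young and 6.03 in old cells, while the share of cells above the limit was larger in old cells. Cells with at least 1 *Stat3* read numbered 43 of 52 young and 57 of 62 old. Among cells without a cell cycle gene, 12 of 25 young and 37 of 49 old cells expressed it and the difference was 1.72, while the log2 ratio of summed counts over all cells was 0.25.

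*Stat5a* and *Stat5b* encode the closely related STAT5 factors that carry most of the response to thrombopoietin. *Stat5a* ranged from 0 to 9.89 in young cells (median 4.69) and from 0 to 10.35 in old cells (median 3.29). It was expressed in 36 young (69.2%, 54.9 to 81.3) and 41 old cells (66.1%, 53 to 77.7), with means of 4.22 ± 3.01 and 3.71 ± 3.01. The difference of -0.51 became a log2 ratio of 0.28 when counts were summed. The cell with the most reads held 23.3% of 13923 young reads and 36.5% of 14600 old reads. Without these cells the log2 ratio of summed counts was 0.02. The difference stayed negative under every other setting, at -0.53 in cells with at least 1000000 reads and -0.46 in cells without a cell cycle gene. No direction that holds under every setting can thus be given for *Stat5a*.

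*Stat5b* ran from 0 to 9.85 in young cells (median 0.98) and from 0 to 10.89 in old cells (median 1.65). The shares of expressing cells were close, at 22 young (42.3%, 28.7 to 56.8) and 28 old (45.2%, 32.5 to 58.3), within overlapping intervals. The means were 2.25 ± 2.79 and 3.07 ± 3.41, a difference of 0.82. Here the level in expressing cells differed more than their share, with a median of 4.28 in young and 6.72 in old cells. One cell of each age held much of the signal, 38.7% of 7387 young reads and 29.3% of 16240 old reads, and without these cells the difference was 0.84. Among cells without a cell cycle gene, the order of the shares was turned, with 13 of 25 young and 22 of 49 old cells expressing *Stat5b*, and the difference was 0.51. The order was also turned among cells with at least 1000000 reads, where 19 of 47 young and 19 of 51 old cells expressed *Stat5b*. The difference there was 0.66.

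The STAT genes were read in changing combinations from cell to cell. At least 1 STAT5 gene was expressed in 41 young (78.8%, 65.3 to 88.9) and 46 old cells (74.2%, 61.5 to 84.5). Both were expressed in 17 young and 23 old cells, *Stat5a* alone in 19 and 18, and *Stat5b* alone in 5 and 5. In each age, 5 cells expressed none of the 3 STAT genes. *Jak2* was expressed together with a STAT5 gene in 18 young (34.6%, 22 to 49.1) and 24 old cells (38.7%, 26.6 to 51.9). None of these combinations had intervals that lay apart between the ages.

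**Figure D2:**
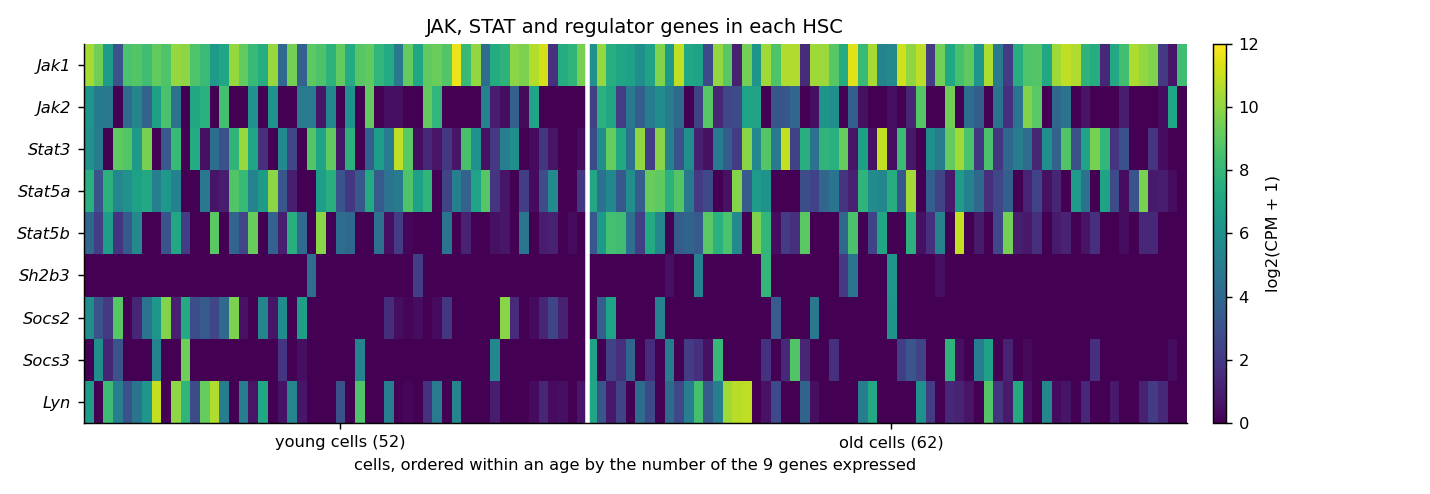
Level of the 9 genes (rows) in each of the 52 young and 62 old HSCs (columns), coloured by log2(CPM + 1) and ordered within an age by how many of the 9 genes a cell expressed, which ran from 1 to 7. *Jak1* forms a nearly unbroken row, the STAT genes and *Jak2* are patchy at both ages, and *Socs2* is seen in many young and 6 old cells.

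The inhibitors were expressed in fewer cells than the other members at both ages. By cells with at least 1 read this did not hold for *Socs2* in young cells. It had a read in 32 of them, against 32 for *Stat5b*, 32 for *Lyn* and 30 for *Jak2*. *Socs2*, a target of STAT5 whose protein restrains growth hormone and related cytokine signals, had the largest difference of the 9 genes. It ranged from 0 to 9.85 in young cells (median 0.63) and from 0 to 6.97 in old cells (median 0). The upper part of the young range held no old cell: 5 young cells, at 9.85, 9.74, 9.64, 8.87 and 7.33, lay above the highest old cell, and the 2 ages overlapped below that. *Socs2* was expressed in 18 young cells (34.6%, 22 to 49.1) and 6 old cells (9.68%, 3.63 to 19.9). The old cells that expressed it stood at 6.97, 6.16, 5.30, 4.80, 3.60 and 3.43.

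*Socs2* was the one member whose intervals for the share of expressing cells did not overlap between the ages; over all genes with a read, 0.733% had intervals apart in this direction and 0.899% in the other. The mean was 2.18 ± 2.98 in young and 0.49 ± 1.56 in old cells, a difference of -1.70 that ranked 96 from the lowest among 9374 genes. Young cells held 8255 *Socs2* reads in sum (8078 to 8435) and old cells 683 (633 to 736), with 33.6% of the young and 48.6% of the old reads in 1 cell of each age, and without those 2 cells the difference was -1.65. Below the limit for an expressing cell the ages also differed, because 14 further young cells had a few *Socs2* reads whereas the other 56 old cells had none. Among expressing cells the medians, 5.64 in young and 5.05 in old, were close.

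Depth moved with *Socs2* in young cells, where its level had a Pearson r of -0.35 with the log10 of total reads over 52 cells (0.06 over 62 old cells). It was expressed in 4 of the 5 young cells under 1000000 reads and in 1 of 11 such old cells. Among cells with at least 1000000 reads the shares were 14 of 47 young (29.8%, 17.3 to 44.9) and 5 of 51 old (9.80%, 3.26 to 21.4), whose intervals overlapped, and the difference was -1.34. With an expressing limit of 3 the shares were 26.9% (15.6 to 41) and 9.68% (3.63 to 19.9), also overlapping. In cells without a cell cycle gene the difference was -2.17, with 10 of 25 young (40%, 21.1 to 61.3) and 4 of 49 old cells (8.16%, 2.27 to 19.6) expressing *Socs2*.

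*Socs3*, an inhibitor of signals through the interleukin-6 receptor family and of JAK kinases, pointed the other way. Young cells ranged from 0 to 9.36 and old cells from 0 to 8.73, both with a median of 0, and the ranges overlapped. It was expressed in 6 young (11.5%, 4.35 to 23.4) and 13 old cells (21%, 11.7 to 33.2), with overlapping intervals. The means were 0.74 ± 1.98 and 1.29 ± 2.26, a difference of 0.56. Low reads were again more frequent at the age with more summed reads, since 13 further old but 3 further young cells had *Socs3* reads under the limit. In young cells the level fell with depth, with Pearson r = -0.58 and Spearman r = -0.30 against the log10 of total reads over 52 cells. Over 62 old cells these were 0.01 and -0.03. Of the 5 young cells under 1000000 reads, 3 expressed *Socs3*. Among cells with at least 1000000 reads, 3 of 47 young (6.38%, 1.34 to 17.5) and 11 of 51 old cells (21.6%, 11.3 to 35.3) expressed it. These intervals overlapped, and the difference was 0.88. *Socs2* and *Socs3* were expressed together in 4 young cells and 1 old cell.

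*Sh2b3* was at or near 0 in most cells, with no read in 50 young and 55 old cells. Its highest cell stood at 4.27 in young and 7.96 in old cells, and the median was 0 at both ages. In all, 2 young (3.85%, 0.469 to 13.2) and 5 old cells (8.06%, 2.67 to 17.8) expressed it, with overlapping intervals, and so few expressing cells limit any comparison. The means were 0.13 ± 0.66 and 0.44 ± 1.54, a difference of 0.31, and 1 cell held 83.6% of the 67 young reads and 1 cell 63.2% of the 821 old reads.

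Counted together, at least 1 of *Socs2*, *Socs3* and *Sh2b3* was expressed in 22 young (42.3%, 28.7 to 56.8) and 22 old cells (35.5%, 23.7 to 48.7), whose intervals overlapped. Cells that expressed *Jak2* and a STAT5 gene without any of the 3 inhibitors numbered 10 young (19.2%, 9.63 to 32.5) and 15 old (24.2%, 14.2 to 36.7).

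*Lyn* ranged from 0 to 10.91 in young cells (median 0.68) and from 0 to 10.86 in old cells (median 0.85), and the 2 ages overlapped throughout. Expressing cells were 21 young (40.4%, 27 to 54.9) and 24 old cells (38.7%, 26.6 to 51.9). The means were 2.75 ± 3.44 and 2.34 ± 3.07, a difference of -0.41, which became 0.13 when the cells outside the quality limits were kept as well and -0.93 among cells without a cell cycle gene.

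**Figure D3:**
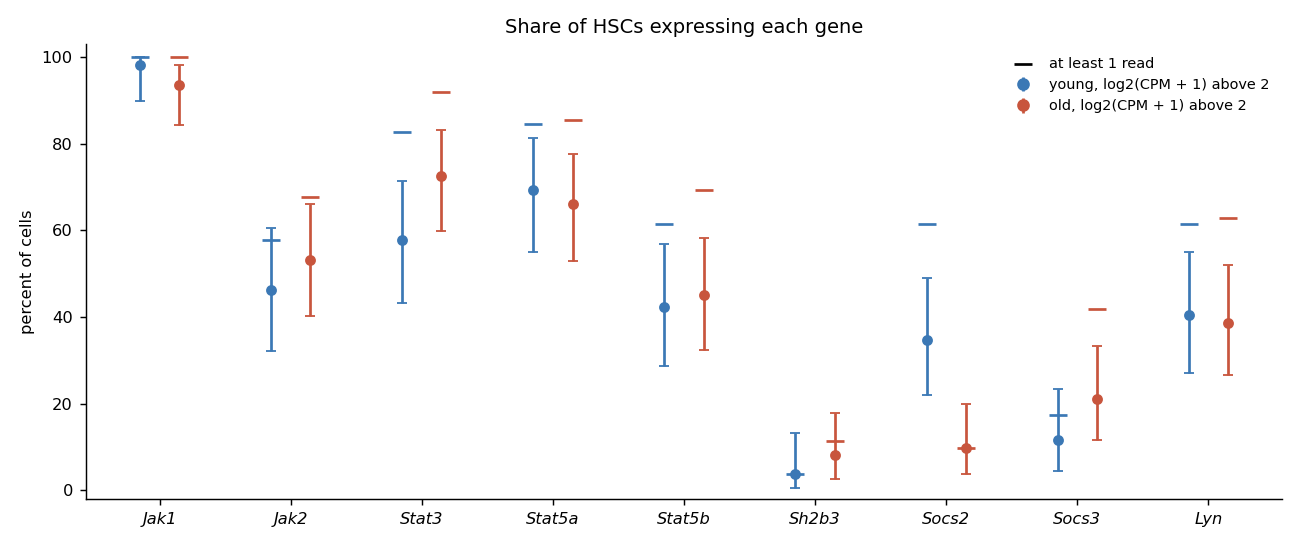
Percent of young and old HSCs that expressed each gene (points, log2(CPM + 1) above 2) with 95% exact Clopper-Pearson intervals for counting error, and percent with at least 1 read (short lines). The intervals of the 2 ages lie apart for *Socs2*, at 34.6% of young and 9.68% of old cells, and overlap for the other 8 genes.

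Per kilobase of transcript, the scale on which genes can be set side by side, *Jak1* had the highest mean of log2(CPM per kilobase + 1) at both ages, 5.97 ± 1.89 in young and 5.60 ± 2.53 in old cells. In young cells it was followed by *Stat5a* (2.86 ± 2.37), *Stat3* (2.51 ± 2.61), *Lyn* (1.97 ± 2.73), *Jak2* (1.86 ± 2.25), *Socs2* (1.71 ± 2.57), *Stat5b* (1.27 ± 1.94), *Socs3* (0.56 ± 1.58) and *Sh2b3* (0.06 ± 0.36). In old cells the order was *Stat3* (3.04 ± 2.67), *Stat5a* (2.44 ± 2.41), *Stat5b* (1.91 ± 2.54), *Jak2* (1.75 ± 2.15), *Lyn* (1.59 ± 2.45), *Socs3* (0.92 ± 1.83), *Socs2* (0.38 ± 1.24) and *Sh2b3* (0.28 ± 1.06). After *Jak1*, neighbours in either order differed by less than the larger of their 2 SDs over cells; *Socs3* and *Sh2b3* in young cells differed by more than the SD of *Sh2b3*. *Socs2* stood in place 6 in young and in place 8 in old cells.

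Within an age the 9 genes were weakly related to each other. Over the 36 pairs, Pearson r of log2(CPM + 1) ran from -0.21 to 0.31 in 52 young and from -0.16 to 0.26 in 62 old cells, which share a mouse and an experiment and differ in depth, and the pair at 0.31 was *Socs3* and *Lyn* in young cells. A cell expressed 1 to 7 of the 9 genes, with a median of 4 at both ages. The genes whose levels resembled a member most, among 9369 compared and judged by the lower of the 2 within-age r, were also weakly related, with r of 0.26 to 0.41. They were *Chmp4b* and *Eef1g* for *Jak1*, *Stt3b* and *Cdk5rap1* for *Jak2*, *Med14* and *Irak4* for *Stat3*, *Hoxb3* and *Eif1* for *Stat5a*, *Picalm* and *Trp53i13* for *Stat5b*, *Sdf4* and *Szrd1* for *Socs2*, *Ftx* and *Zfp335* for *Socs3*, and *Fam210a* and *E130308A19Rik* for *Lyn*.

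Around the 9 genes, 70 further genes of the pathway were listed, of which 69 were in the table. Of these, 43 were higher and 26 lower in old cells, 8 were higher by at least 1 and none was lower by as much, and their median difference was 0.13. Over all genes with a read, 6943 were higher and 8071 lower, and 3.91% and 4.49% passed 1 in these directions. The 8 genes were all among the 9374 genes that 10% or more of the cells expressed. Over those 9374 genes the shares past 1 were 6.24% and 6.98%. Of the 7 list medians given below, those of the other JAK and STAT genes and of the STAT targets were positive under each setting tried, and the other 5 changed sign under at least 1. The intervals of the share of expressing cells lay apart for *Cdkn1a*, higher in old cells, and for none in the other direction. Over all genes with a read, 0.899% and 0.733% had intervals apart in these directions. With 69 genes, a count of 1 does not set them apart from all genes.

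Among the other Janus kinases and STAT factors, 5 of 6 were higher in old cells, with a median of 0.31. *Stat6*, which answers interleukin-4, differed by 0.60 and *Tyk2*, a kinase of interferon receptors, by 0.46. *Jak3*, the kinase paired with the common gamma chain, differed by -0.99, from 1.55 in young cells (14 expressing) to 0.56 in old cells (7 expressing). None of the 6 reached a difference of 1.

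Of the 8 other SOCS and SH2B genes, 5 were higher and 3 lower in old cells, with a median of 0.10 that was -0.02 over the 5 expressed in at least 10% of cells and 1.24 with counts summed. *Cish*, which like *Socs2* is a STAT5 target and encodes an inhibitor of the same family, differed by 0.19 and was expressed in 16 young (30.8%, 18.7 to 45.1) and 18 old cells (29%, 18.2 to 41.9). The low *Socs2* level of old cells was thus not shared by *Cish*, though this contrast between the 2 genes was not tested. *Sh2b1*, an adaptor that promotes JAK2 activity, differed by -0.74 and *Socs4* by -0.28.

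The 7 SRC family kinases and *Csk* in the table had a median of 0.20, or -0.59 over the 3 expressed in at least 10% of cells. *Fyn* was higher in old cells by 0.21, *Csk*, whose product switches SRC kinases off, differed by -0.79, and *Lck* by -0.59. For the 12 phosphatase, PIAS and CBL genes, several of which end or limit signalling, 6 were higher and 6 lower, with a median of -0.15. *Pias2*, which encodes a SUMO ligase that binds STAT factors, was higher by 1.04 (9 young and 17 old cells expressing), the phosphatase gene *Inpp5d* by 0.92, and *Pias1* differed by -0.64. Of the 6 adaptors that lead to RAS and PI3 kinase, *Grb2* was higher by 1.12 (22 and 36 cells), while *Gab1* and *Shc1* differed by -0.80 and -0.76.

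The 18 genes of other receptors that use Janus kinases were 10 higher and 8 lower in old cells, with a median of 0.09. *Il2rg*, the common gamma chain of several interleukin receptors, differed most, from 3.38 in young to 5.62 in old cells, by 2.24. It was expressed in 22 young (42.3%, 28.7 to 56.8) and 42 old cells (67.7%, 54.7 to 79.1). The growth hormone receptor gene *Ghr* was higher by 1.07, with 4 young (7.69%, 2.14 to 18.5) and 16 old cells (25.8%, 15.5 to 38.5) expressing it, and *Ifngr1*, a chain of the interferon gamma receptor, by 1.09. *Il6st*, the signalling chain of the interleukin-6 family, was higher by 1.03, with 5 and 12 cells expressing it. For each of these the intervals of the shares overlapped.

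Of 12 genes known as STAT targets, 9 were higher and 3 lower in old cells, with a median of 0.29. *Cdkn1a*, an inhibitor of cyclin-dependent kinases that p53 also controls, was higher by 1.21 and was expressed in 2 young (3.85%, 0.469 to 13.2) and 16 old cells (25.8%, 15.5 to 38.5). *Ccnd1*, which encodes cyclin D1, was higher by 1.18 (12 and 24 cells), and *Myc* by 0.56. *Socs2*, itself a STAT5 target, differed between the ages in the opposite direction to these 3 genes. Its direction was that of the 3 listed targets lower in old cells, *Ccnd2* (-0.21), *Id1* (-0.23) and *Osm* (-0.06).

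**Figure D4:**
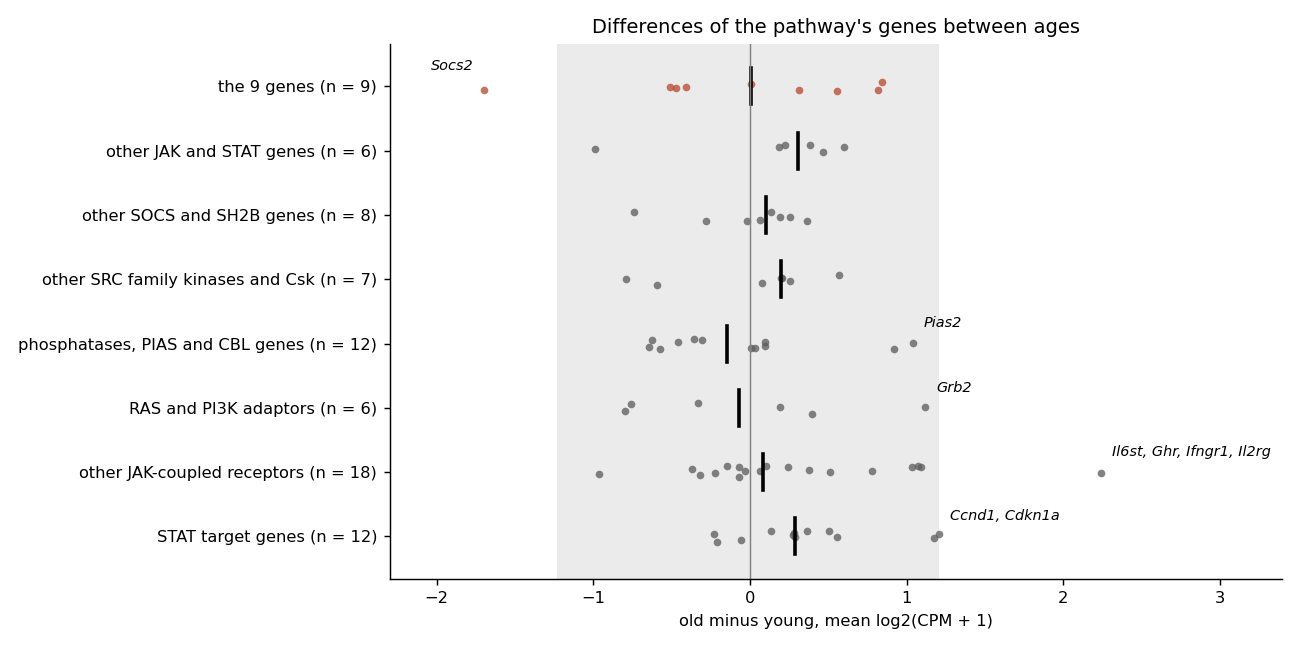
Difference between ages (old minus young, mean log2(CPM + 1)) for the 9 genes and for 7 lists of further pathway genes, with 1 point per gene, a bar at the median of each list and genes past 1 named in ascending order. The grey band, from -1.23 to 1.20, holds the central part of all 15014 genes (95%), and *Socs2* and *Il2rg* lie outside it most clearly.

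The sign of the difference for *Socs2* was negative under each of the 8 ways of choosing cells and scaling counts that were set beside the first one, from -1.34 in cells with at least 1000000 reads to -3.39 as the log2 ratio of summed counts. *Stat3*, *Stat5b*, *Socs3* and *Sh2b3* were higher in old cells under each of them, and *Jak1*, *Jak2*, *Stat5a* and *Lyn* changed sign under at least 1.

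**Figure D5:**
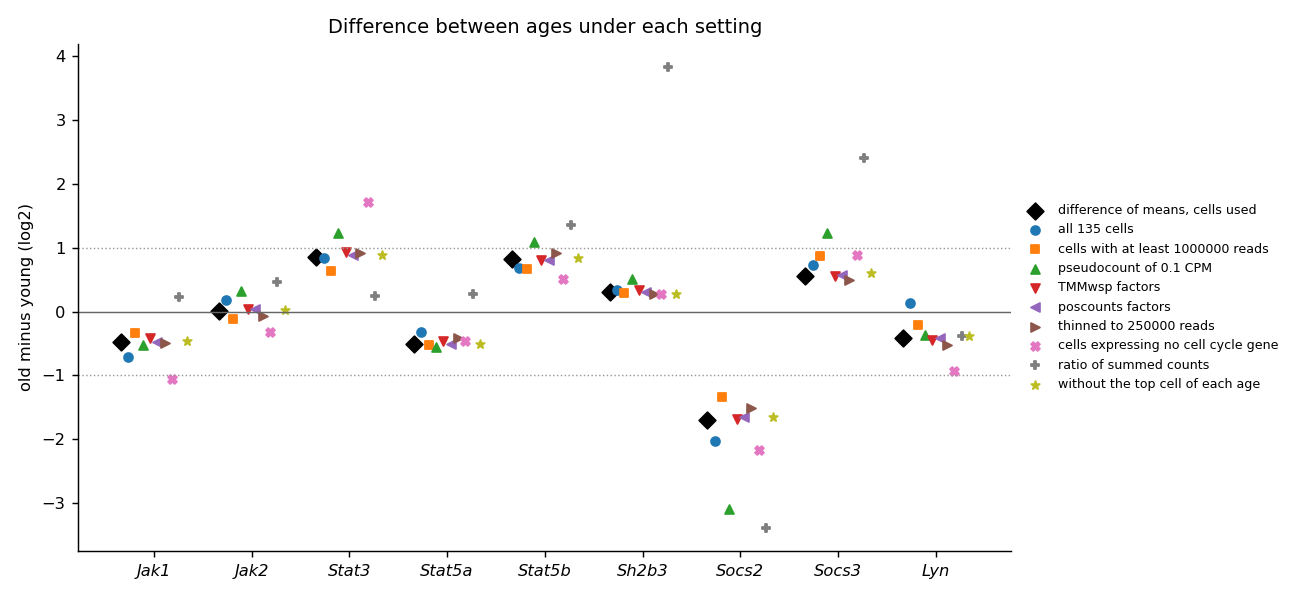
Difference between ages (old minus young, log2) of the 9 genes for the 114 cells (black diamonds), under 8 other settings, and without the cell of each age with the most reads of the gene, with dotted lines at a size of 1. *Socs2* lies below -1 under each setting, and *Jak1*, *Jak2*, *Stat5a* and *Lyn* fall on both sides of 0.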

How the data were processed

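The authors mapped single 51-base reads to the mouse genome (mm10) with TopHat2 2.0.10, keeping 1 alignment per read, and counted them on RefSeq genes, and the deposited table holds these raw read counts, not normalized, for each cell. Whether strand was used in counting is not given in the sources used here. The annotated span of *Jak1* overlaps 4 other genes, that of *Lyn* 3, and those of *Stat3*, *Sh2b3* and *Socs2* 1 each. The effect of these overlaps on the counts was not tested. Counts were scaled to CPM by the total of each cell. The 114 cells that pass the study's limits were used and the other 21 were left out. Positions and transcripts are from RefSeq and GENCODE M21 on GRCm38, the build also called mm10.

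The 9 members and the lists were chosen with earlier results of these data known. Genes named are the 9 members, in each list at most 3 genes with the largest absolute difference among those expressed in at least 10% of cells, and, for each member so expressed, the 2 genes most like it. *Il6st* was named besides because it passed a difference of 1, after its values were seen. Among the HSC markers, *Meis1*, *Fgd5*, *Slamf1*, *Ly6a* and the 3 lower in old cells were also named after their values were seen. So were the 3 STAT targets lower in old cells. The markers of B, T, erythroid cells, macrophages, neutrophils, megakaryocytes and platelets found in the table are all given.

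Alternatives were all cells of the table, cells with at least 1000000 reads, a pseudocount of 0.1 CPM, summed counts, TMMwsp factors (edgeR 4.0.16), poscounts factors (DESeq2 1.42.0), thinning to 250000 reads, cells without a cell cycle gene, and other limits for an expressing cell. Leaving out the cell of each age with the most reads of a gene was added after the data had been seen, as was the floor of 3 reads for a gene with none at 1 age when counts were summed. The steps were tested on simulated counts. Python 3.11.15, numpy 2.4.6, pandas 2.3.3, scipy 1.17.1 and R 4.3.3 were used.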

Additional observations from a re-analysis of the deposited data

How the results depend on the processing

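A difference was taken to stand where the ratio it represents moved by less than 1.5 times. Of the differences of members under other settings, 72 stood and 9 moved, and of the shares of expressing cells 94 stayed in their interval and 14 did not, 13 of these with a limit of at least 1 read. With counts summed, which weights cells with many reads, the log2 ratios were 0.23 for *Jak1*, 0.25 for *Stat3*, 0.28 for *Stat5a*, 3.83 for *Sh2b3*, -3.39 for *Socs2* and 2.40 for *Socs3* (4.98 for *Sh2b3* without the cell of each age with the most reads), and the medians 1.24 for the other SOCS and SH2B genes and 1.30 for the SRC family kinases and *Csk*. With a pseudocount of 0.1 CPM the differences were -3.09 for *Socs2* and 1.22 for *Socs3*. In cells without a cell cycle gene *Stat3* differed by 1.72. The median of the SRC family kinases and *Csk* was -0.59 over the 3 of them expressed in at least 10% of cells. Members higher by at least 1 numbered 3 with the pseudocount of 0.1 CPM, 3 with counts summed and 1 without cell cycle genes, against 0, and members lower by at least 1 numbered 2 without cell cycle genes, against 1. The cause of these changes was not tested. No paired analysis was possible because the study used 1 mouse per age for these cells and the labels give no number that links cells of the 2 ages. With 1 mouse per age, no animal could be left out.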
